A study of Mus musculus with 13 samples.

Results

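The comparison described here was between fibroblasts of the mouse 1B line after doxycycline had been taken away and the same line before it was given. Doxycycline (Dox) is a drug that switches on the reprogramming factors these cells carry. The members are 2 of the 13 exon arrays of the study. One array held 1B-secondary mouse embryonic fibroblasts (MEFs) that had received 1.5 µg/ml Dox for 5 days and had then been kept for 5 days with no Dox, so that they were sampled at day 10. The other held untreated 1B-secondary MEFs at day 0. Beside them stands the 1B array at day 5 of Dox, whose values are called those with Dox. All 1B cells carried the inducible factors and were kept in mouse embryonic stem cell medium, with passages at intervals set by density and colony size. The array names place the 1B arrays in 1 run. Untreated cells of 6C, a line of the same kind, and parental MEFs had 1 array each, in other runs, and serve as further untreated levels. The remaining arrays held 6C cells at days 2 to 21 of 1.5 µg/ml Dox, and secondary and primary induced pluripotent stem cells of 6C. They were also in other runs than the 1B arrays. The name of the 6C day 0 array speaks of day 2 without Dox; its sample label was followed. Each condition rests on 1 array of 1 line, so no difference could be tested and no error can be given. No untreated 1B array at day 10 was analysed here, so exposure to the factors and time in culture cannot be told apart.

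Secondary fibroblasts are derived from cells that already hold the integrated, drug-inducible factors, so that the whole culture can be switched on at the same time. An early step of reprogramming is a mesenchymal to epithelial transition, in which fibroblasts lose matrix and mesenchymal genes and gain genes of cell junctions. Cells whose factors are switched off before their own pluripotency network is active generally do not become induced pluripotent stem (iPS) cells, and which of their genes go back to the fibroblast level is what withdrawal shows.

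Values are log2 expression values per transcript cluster, the set of exon probes that stands for 1 gene. A difference of 1 on this scale is 2-fold. Levels cannot be compared between clusters, so each gene is compared with itself across arrays. Compared with day 0, the withdrawn array held 788 of 23332 clusters (3.38%) at over 2-fold higher levels and 1729 (7.41%) at over 2-fold lower levels, and 89.2% lay within 2-fold. Over 4-fold apart were 96 higher and 272 lower clusters. Among the 14860 genes with 1 symbol, 449 (3.02%) were higher and 658 (4.43%) lower, with a median difference of 0.01. These shares are the background for the list counts against day 0 below. The excess of lower genes depended on the scaling: with each array centred on its median, which moved the median of all genes by 0.10, there were 547 higher and 537 lower genes. The clusters without a single symbol held 335 of the higher and 1062 of the lower clusters, and many of the 1729 lay at low levels, where a filter at a mean of 6 left 343 higher and 670 lower.

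As a measure of how far untreated arrays lie apart, 6C day 0 was over 2-fold higher than the parental array in 876 clusters (3.75%) and lower in 3253 (13.9%). For 1B day 0 against the parental array the counts were 1294 (5.55%) and 1487 (6.37%). The counts after withdrawal were thus no larger in all than those between untreated lines hybridised in different runs. Of the 788 higher clusters, 609 (77.3%) lay above all 3 untreated arrays, and 288 (36.5%) by over 2-fold. Of the 1729 lower clusters, 1151 (66.6%) lay below all 3, and 311 (18.0%) by over 2-fold. The medians of the 1B arrays ran from 6.42 to 6.56, within the range of all 13 arrays, 6.34 to 6.67.

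**Figure D1:**
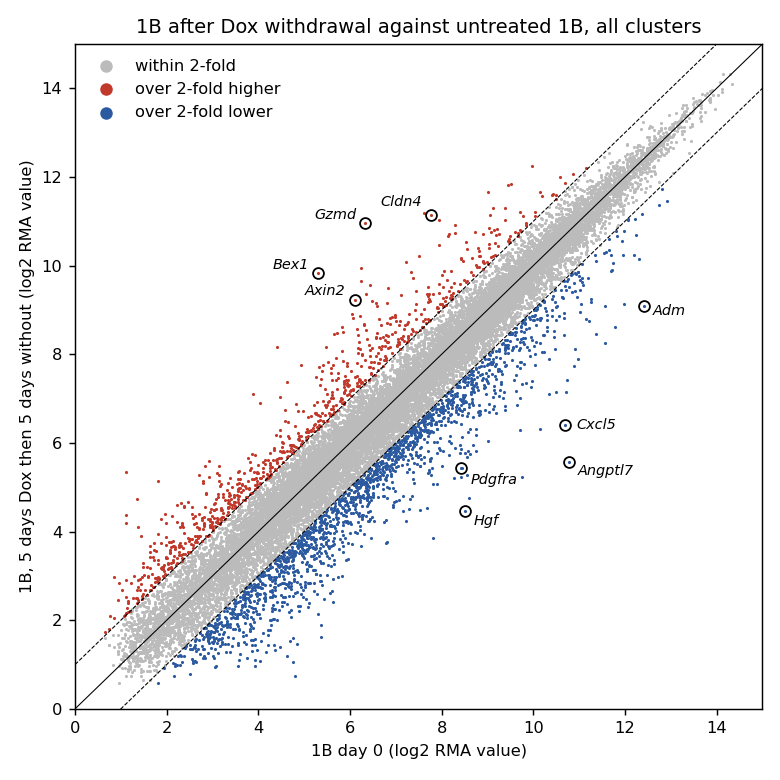
Each point is 1 of 23332 clusters, with its log2 value in untreated 1B cells at day 0 on the x axis and after 5 days of Dox and 5 days without on the y axis; dashed lines mark a 2-fold difference. The 1729 lower clusters reach into the lowest levels, and genes named in the text, such as Gzmd, Bex1 and Cldn4 above and Angptl7, Cxcl5 and Adm below, lie far outside the band.

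The label of fibroblasts was checked against marker genes. In bulk RNA, fewer cells of a type and less RNA per cell cannot be told apart. Of 8 fibroblast markers, the withdrawn array held 4 over 2-fold below day 0 and none above it. Their summed level, on the log2 scale, was 15.03 at day 0, 11.79 at day 5 with Dox and 14.69 after withdrawal. The sum rests on the brightest genes, such as Col1a1, which stood at 13.46 and 13.44. The median over these markers was 11.36 before Dox, 6.99 with it and 10.14 without it again. The summed level of 5 measured simple epithelium markers was 9.29 at day 0, 12.74 with Dox and 12.14 after withdrawal. Their median fell further from its level with Dox, at 5.64, 11.04 and 8.16. For 6 keratinocyte markers the sum was 7.64, 10.52 and 8.29 and the median 5.10, 6.84 and 5.54. For 6 pluripotency markers the sum was 7.71, 13.44 and 8.19, while their median was 5.12, 5.44 and 5.40. The sum at day 5 rests on Pou5f1, a reprogramming factor, at 13.16. For 7 macrophage and blood markers the sum was 9.32, 8.81 and 9.26. Skeletal muscle and neural markers held no member over 2-fold from day 0 after withdrawal. At day 5, 1 of the 4 measured neural markers was over 2-fold higher.

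Of the reprogramming factors, none was over 2-fold from day 0 after withdrawal. Pou5f1, which encodes Oct4, was 5.58 at day 0, 13.16 with Dox and 6.41 after withdrawal, a difference of 0.83 from day 0. The parental array stood at 6.46, so the withdrawn array lay within the range of the untreated ones. Klf4 stood at 9.37, 9.27 and 8.62, Myc at 11.51, 10.39 and 10.95, and Sox2 at 7.36, 7.59 and 6.82 on the same 3 arrays. Which of these signals come from the inducible copies was not tested. Of 27 measured pluripotency genes, 2 were over 2-fold higher (7.41% of the list, against 3.02% of all genes) and 1 was lower (3.70%, against 4.43%). The higher genes were Tdgf1, a Nodal co-receptor (4.48 at day 0, 6.15 after withdrawal), and Zfp42, a marker of stem cells also called Rex1 (3.41 and 4.61). Both lay below the parental array, which had 6.43 for Tdgf1 and 5.18 for Zfp42. Dppa5a, a germ and stem cell gene, was lower, at 2.39 against 5.10, and the other untreated arrays stood at 3.13 and 2.11. Tdgf1, Zfp42 and Dppa5a all lay below the array medians, 6.56 at day 0 and 6.46 after withdrawal. The counts of this list thus rest on low signals. Sall4 and Fgf4, further genes of the network, stood 0.04 above and -0.14 from day 0.

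Genes of cell division, taken as a list, stood lower after withdrawal than in any untreated array. Mitosis is driven by cyclins and kinases, by motor proteins of the spindle and by the checkpoint proteins that hold back the separation of chromosomes. Of 36 measured mitosis genes, 30 (83.3%, against 4.43% of all genes) were over 2-fold lower than at day 0 and none was higher. The list median was -1.33. At day 5 the same list's median had stood at 1.39 above day 0. Relative to 1B day 0, the median was -0.70 in the parental array and 0.41 in 6C day 0. For 33 of the 36 genes the withdrawn array was the lowest of all 13. The same count was 6 for 16 sterol genes and 2 for 35 epithelial genes. How often this array was the lowest or highest over all genes was not counted, here or for later lists. The median of all genes, for comparison, was 0.01.

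Mki67, the gene of the proliferation marker Ki-67, was 7.95 at day 0, 9.26 with Dox and 5.88 after withdrawal. In the parental and 6C untreated arrays it stood at 7.49 and 8.40, so the withdrawn value lay 1.61 below the lowest untreated one. Bub1, a spindle checkpoint kinase, was 8.56, 10.21 and 6.61 on the 1B arrays and 7.35 in the parental array. The checkpoint kinase gene Ttk followed the same order, at 7.84, 9.51 and 6.01. Ccnb2, which encodes cyclin B2, was 9.32, 10.40 and 7.56, against 8.97 in the parental and 9.61 in the 6C array. The spindle motor gene Kif11 was 8.59, 10.59 and 6.88. Top2a, the topoisomerase that untangles sister chromatids, was 9.85, 11.25 and 8.17. In each of these genes day 5 was the highest and the withdrawn array the lowest of the 1B arrays. Ube2c, which encodes a ubiquitin-conjugating enzyme of mitotic exit, and Spc25, a kinetochore gene, did not follow: they differed from day 0 by -0.06 and 0.07.

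DNA replication genes stood lower too. Of 35 measured, 14 (40.0%, against 4.43% of all genes) were over 2-fold lower and none was higher, with a median of -0.79. In this list 24 genes had their lowest value of the 13 arrays after withdrawal. At day 5 the list median was 1.45, and it was -0.50 in the parental and 0.10 in the 6C untreated array. Against the parental array only 4 of the 35 were over 2-fold lower, with a median of -0.36. Pola1, the catalytic subunit of the polymerase that begins each new strand, was 7.54 at day 0, 9.53 with Dox and 5.88 after withdrawal. Mcm5 and Mcm3, parts of the replicative helicase, differed from day 0 by -1.50 and -1.39. Mcm5 stood at 9.01, 10.94 and 7.51, and the parental array at 8.26. Pole, a leading strand polymerase, differed by -1.44 and Gins1, a helicase cofactor, by -1.40. Rrm1, the large subunit of ribonucleotide reductase, was 11.43 in both the day 0 and the withdrawn array, and Gins4 was 9.34 and 9.35.

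The sterol synthesis pathway, which makes cholesterol from acetyl-CoA and is driven by the transcription factor encoded by Srebf2, also had its lowest mean level of the 13 arrays after withdrawal. Of 16 measured genes, 8 (50.0%, against 4.43% of all genes) were over 2-fold lower than at day 0 and none was higher. Differences lay between -1.36 and -0.01, with a median of -0.99. The median at day 5 was 0.23. The 6C untreated array lay at -0.70, close to the withdrawn array, and the parental array at -0.10. Pmvk, a kinase of the mevalonate steps, was 8.15 at day 0, 9.44 with Dox and 6.79 after withdrawal. Cyp51, the sterol demethylase, was 11.00, 11.13 and 9.76, and 10.93 and 10.16 in the parental and 6C arrays. Lss, which closes the sterol rings, was 10.00, 10.36 and 8.76, and Sqle, the squalene epoxidase, 10.70, 10.91 and 9.54. Stard4, a cholesterol carrier, and Insig1, which holds the pathway back when sterols are plentiful, differed by -1.35 and -1.18. For these last genes the 6C untreated array lay below the withdrawn array: it held 8.79 for Stard4 against 8.83, and 10.49 for Insig1 against 10.66. Srebf2 itself stood at 11.45 and 11.00, and Dhcr7, a late enzyme, at 8.36 and 8.18.

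**Figure D2:**
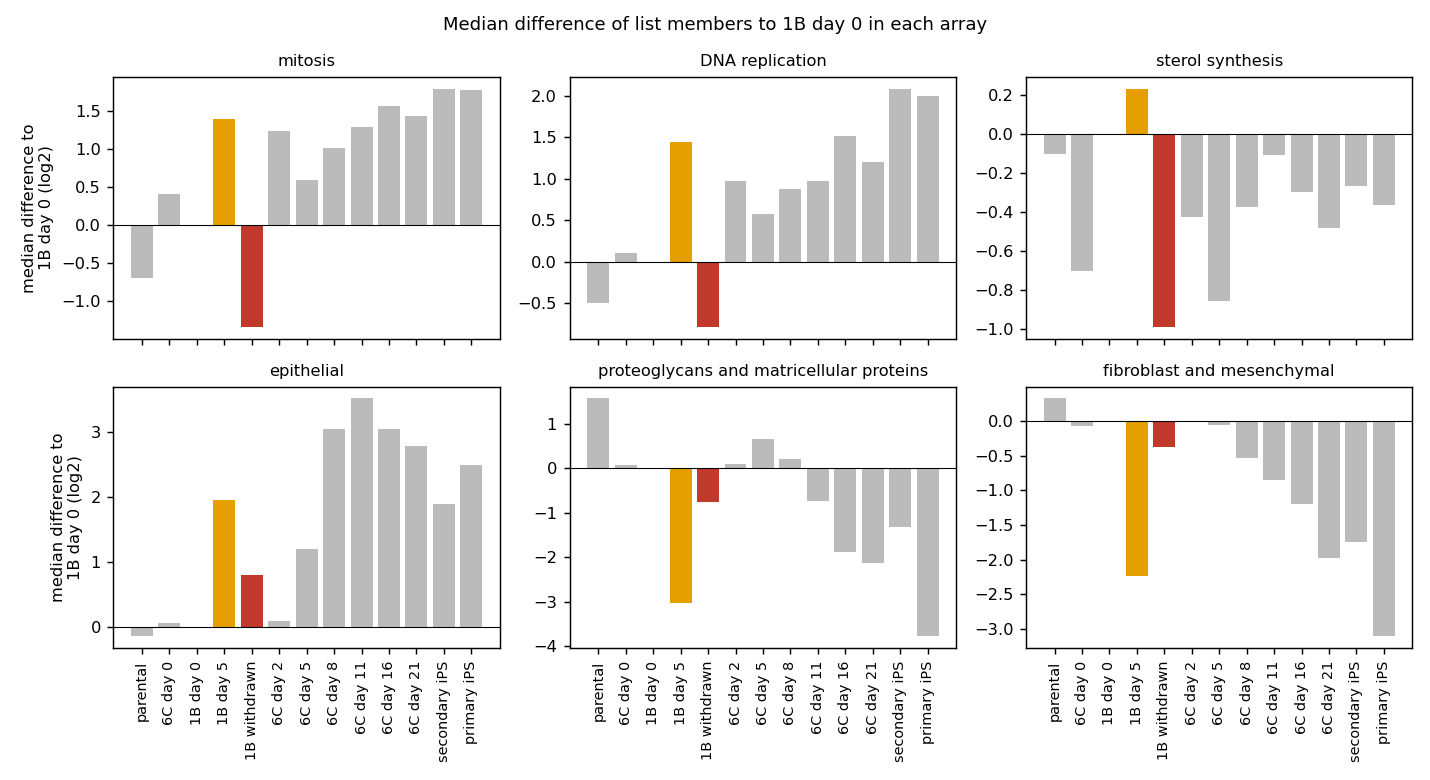
Bars show, for each of the 13 arrays, the median difference of a list's members to 1B day 0 on the log2 scale; 1B day 5 is orange, the withdrawn 1B array red, and the y scales differ between panels. For mitosis and DNA replication the withdrawn bar points down, to -1.33 and -0.79, where day 5 points up, while for epithelial, matrix and fibroblast genes both point the same way.

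The stretches before the start of a few of these genes are printed because the mitosis and sterol lists share a short motif there. They are the 250 bases before the annotated start, 5′ to 3′ on the gene's strand, from RefSeq on the build GRCm38.p6, which differs from the mm9 build the submitters' notes name. Capitals mark CCAAT or its reverse ATTGG. They also mark TTTGAA or its reverse TTCAAA (the core of the cell cycle homology region of mitotic genes), and TCACNCCAC on either strand (a form of the sterol regulatory element). Hmgcs1, the synthase of the mevalonate pathway, is outside the rule for named genes and was added after its values were seen. It stood at 11.79 at day 0, 12.03 with Dox and 10.79 after withdrawal, with 11.04 and 10.87 in the other untreated arrays. The positions are chr9:70421555-70421804 (minus strand) for Ccnb2, chr11:99024190-99024439 (minus) for Top2a, chr5:4104698-4104947 (minus) for Cyp51 and chr13:119690101-119690350 (plus) for Hmgcs1.
Ccnb2: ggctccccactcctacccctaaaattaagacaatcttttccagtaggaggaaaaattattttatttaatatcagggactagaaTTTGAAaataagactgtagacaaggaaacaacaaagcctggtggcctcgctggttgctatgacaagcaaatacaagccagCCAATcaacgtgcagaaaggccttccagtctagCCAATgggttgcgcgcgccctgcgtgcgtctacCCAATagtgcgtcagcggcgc
Top2a: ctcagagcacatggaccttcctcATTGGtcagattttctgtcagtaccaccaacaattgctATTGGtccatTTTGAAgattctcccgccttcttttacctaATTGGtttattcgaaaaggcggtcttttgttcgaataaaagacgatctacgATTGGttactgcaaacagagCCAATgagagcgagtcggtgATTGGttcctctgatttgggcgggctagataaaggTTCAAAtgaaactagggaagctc
Cyp51: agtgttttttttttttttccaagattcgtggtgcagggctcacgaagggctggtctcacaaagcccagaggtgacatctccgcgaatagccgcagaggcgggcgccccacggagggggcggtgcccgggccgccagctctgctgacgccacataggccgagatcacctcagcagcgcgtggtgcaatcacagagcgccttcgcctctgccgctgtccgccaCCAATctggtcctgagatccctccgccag
Hmgcs1: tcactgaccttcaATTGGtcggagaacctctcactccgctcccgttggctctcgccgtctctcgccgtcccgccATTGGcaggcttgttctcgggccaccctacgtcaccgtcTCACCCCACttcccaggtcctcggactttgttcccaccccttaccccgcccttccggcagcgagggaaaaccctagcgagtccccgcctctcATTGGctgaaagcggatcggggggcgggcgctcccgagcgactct
Counted back from the transcript start, Ccnb2 held CCAAT at -87, -54 and -21 and TTTGAA at -167. Top2a held 6 matches to CCAAT in either orientation, and TTTGAA at -179 and TTCAAA at -23. Cyp51 held CCAAT at -29. Hmgcs1 held ATTGG at -237, -176 and -45 and TCACCCCAC at -137. No match overlapped another in these stretches. Of 11894 promoters of measured genes, 35.9% held CCAAT on either strand. The share was 71.0% of 31 mitosis genes, 60.7% of 28 replication genes and 91.7% of 12 sterol genes. It did not follow the direction of a list. The share was 55.6% of 18 CDK inhibitor and p53 genes, a list with more higher than lower members. For 20 secreted inflammatory genes, a list with more lower members, it was 10.0%. It was 38.1% of the 488 genes over 2-fold lower and 36.8% of the 340 genes over 2-fold higher, both near the share of all measured genes. TTTGAA was held by 13.1% of all measured genes' promoters and 32.3% of those of the mitosis list. Other lists came near that share, with 30.8% of 13 macrophage and blood genes and 30.4% of 23 chromatin genes. The replication list had 14.3%, and the genes over 2-fold lower and higher 17.0% and 17.1%. TCACNCCAC was held by 0.97% of all and by 1 of the 12 sterol promoters, the one printed. The keratinocyte list also had 1 of 12 and the neural list 1 of 11. A match describes these letters and is not a measured binding site.

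Epithelial genes stood higher after withdrawal than in the untreated arrays. Their products seal and glue neighbouring cells through tight junctions, adherens junctions and desmosomes, with keratins inside the cell and surface proteases and their inhibitors outside. Of 35 measured epithelial genes, 14 (40.0%, against 3.02% of all genes) were over 2-fold higher than at day 0 and 1 (2.86%, against 4.43%) was lower. The list median was 0.81 after withdrawal and 1.95 at day 5. Both are differences to the same day 0 array. The other untreated arrays stood at -0.14 and 0.07, so the list medians of these lines lay close together. Single genes, such as Cldn4, Krt18 and Krt19 below, lay further apart between them.

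Epcam, an epithelial adhesion gene, was 4.41 at day 0, 11.04 with Dox and 8.16 after withdrawal. The parental and 6C untreated arrays held 5.40 and 4.87. Cldn4, which encodes the tight junction protein claudin 4, stood at 7.76, 11.08 and 11.14, so that its level after withdrawal was that of day 5. In the parental and 6C untreated arrays it was 5.98 and 6.33. The membrane serine protease gene St14 showed the same order of values, with 6.36, 9.28 and 9.36. Spint2, an inhibitor of such proteases, stood at 8.30, 11.98 and 10.92. Lsr, a protein of the junctions where 3 cells meet, stood at 6.17, 8.89 and 8.43. Cdh1, which encodes E-cadherin and was added after its values were seen, was 5.63, 11.15 and 7.76. For these genes the withdrawn array lay above all 3 untreated arrays.

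The keratin genes of simple epithelium parted. Krt18 was 8.17 at day 0, 5.70 with Dox and 10.71 after withdrawal, so that it was below day 0 with Dox and above it without. In the parental and 6C arrays it was 7.14 and 6.09. Krt19 was 10.02, 10.67 and 8.86, and 8.82 and 6.76 in the other untreated arrays, so the withdrawn value lay within the range of the untreated lines. Esrp1, an epithelial splicing regulator, rested at 5.76 after withdrawal against 4.87 at day 0 and 9.73 at day 5. Patj, a polarity gene, differed from day 0 by 0.26.

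Of 23 measured keratinocyte genes, 7 (30.4%, against 3.02% of all genes) were over 2-fold higher than at day 0 and none was lower. The list median was 0.24, against 2.87 at day 5. Ivl, which encodes involucrin of the cornified envelope, was 3.89 at day 0, 3.77 with Dox and 7.09 after withdrawal, and 2.00 and 3.67 in the other untreated arrays. Itgb4, an integrin of hemidesmosomes, stood at 6.45, 9.59 and 9.57. Perp, a p53 target that serves desmosomes, stood at 9.51, 12.06 and 11.84, and Dsc3, a desmosomal cadherin, at 4.57, 8.08 and 6.75. Itgb4 and Perp thus kept their day 5 level and Dsc3 part of it. Krt17 and Sfn, which are active in stressed and differentiating epidermis, were 1.28 and 1.25 above day 0, from day 5 levels of 11.17 and 10.90. Aqp3, a water and glycerol channel, had reached 12.04 at day 5 and stood at 7.12, which was 0.95 above day 0. Dsc2 stood at 7.81, against 7.09 at day 0 and 10.43 at day 5.

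The stretch before Cldn4 is printed because this gene stood at its day 5 level after withdrawal. Capitals mark TGANTCA, the site of AP-1 factors, searched on both strands. The stretch is chr5:134946935-134947184 (minus strand) on GRCm38.p6, from RefSeq.
Cldn4: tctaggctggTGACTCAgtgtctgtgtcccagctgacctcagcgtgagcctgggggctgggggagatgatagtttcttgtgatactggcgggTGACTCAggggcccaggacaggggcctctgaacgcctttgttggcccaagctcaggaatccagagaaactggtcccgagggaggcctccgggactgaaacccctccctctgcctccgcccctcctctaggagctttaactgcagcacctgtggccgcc
Cldn4 held TGACTCA at -240 and -158 from its start. TGANTCA was in the promoters of 41.7% of 12 keratinocyte genes, 14.3% of 21 epithelial genes, 20.0% each of 20 secreted inflammatory and 15 matrix protease genes, whose lists held more lower than higher members, and 5.96% of the 11894 measured genes, and in 9.12% of the genes over 2-fold higher and 9.22% of those lower.

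Mesenchymal genes ranged from those back at the day 0 level to those well below it. Of 31 measured fibroblast and mesenchymal genes, 7 (22.6%, against 4.43% of all genes) were over 2-fold lower than at day 0 and none was higher. The list median was -0.37, with quartiles of -0.83 and 0.07. At day 5, 23 of the 31 had been over 2-fold lower, with a median of -2.24. Of all genes, 13.2% were lower and 10.3% higher then. Fn1, which encodes fibronectin, was 13.57 at day 0, 10.65 with Dox and 13.64 after withdrawal. Prrx2, a limb mesenchyme transcription factor, was 9.96, 5.88 and 9.91. Both genes had regained the level of 1B day 0, but for Prrx2 the parental array stood higher, at 11.15. Against the parental array, 12 of the 31 genes were over 2-fold lower, with a median of -0.79. Pdgfra, the receptor for platelet-derived growth factor, was 8.42, 4.85 and 5.42, and 11.73 and 8.72 in the parental and 6C untreated arrays. The calcium-binding protein gene S100a4, also called fibroblast-specific protein, was 10.89, 7.35 and 7.73, and 11.47 and 11.18 in the other untreated arrays. Thy1, a fibroblast surface antigen, stood in between, at 11.25, 6.44 and 9.24. Mme, the peptidase neprilysin, stood at 9.63, 9.81 and 7.17, so that it was near day 0 at day 5 and lower only after withdrawal. The 6C untreated array also held 7.17 for Mme.

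Most collagen genes stood within 2-fold of day 0. Of 22 measured collagen genes, 2 were over 2-fold higher and 2 lower (9.09% each, against 3.02% and 4.43% of all genes). The list median was -0.22, and 19 of the genes had been lower at day 5. Against the mean of the untreated arrays 5 of the 22 were lower, and against the parental array 9, with a median of -0.64. Col1a1, the main fibrillar collagen, was 13.46 at day 0, 9.49 with Dox and 13.44 after withdrawal. Col4a2, a basement membrane collagen, was 10.82, 8.54 and 10.83. The lower genes were Col6a3, of beaded microfibrils (11.15, 6.87 and 8.80), and Col14a1, which sits on collagen fibrils (6.97, 5.05 and 5.89). The higher genes were Col18a1, a basement membrane collagen (8.21, 5.93 and 9.88), and Col7a1, which anchors the epidermis to the dermis (7.95, 6.37 and 9.58). For Col18a1 the parental array, at 9.74, was nearly as high. For Col7a1 the withdrawn array lay above all 3 untreated arrays, whose highest was 8.47 in 6C.

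Small leucine-rich proteoglycans, which coat collagen fibrils, were among the genes furthest below day 0. Of 34 measured proteoglycan and matricellular genes, 16 (47.1%, against 4.43% of all genes) were over 2-fold lower and none was higher. The list median was -0.75. The median was 1.56 in the parental and 0.06 in the 6C untreated array, so the untreated lines themselves lay apart here. Lum, the proteoglycan lumican, was 7.80 at day 0, 3.34 with Dox and 3.84 after withdrawal, and 12.48 and 8.26 in the other untreated arrays. Prelp, of the same family, stood at 10.71, 8.35 and 7.14, lower after withdrawal than at day 5. Dcn, which encodes decorin, stood at 9.37, 10.73 and 6.83: it was above day 0 with Dox and below it without, and the other untreated arrays had 13.10 and 10.19. Aspn, a further family member, was 9.11, 3.51 and 6.77. Efemp1, a fibulin of elastic tissue, was 11.79, 7.91 and 8.62, with 8.30 in the 6C untreated array. Matn2, a matrix adaptor, stood at 9.34, 6.26 and 7.01. Other matrix genes were at the day 0 level: Postn, which encodes periostin, was 11.05, 5.56 and 11.07, and Fbln2, which encodes fibulin 2, was 13.25, 8.70 and 13.26.

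Matrix proteases ranged from well below day 0 to above it, with a list median of -0.05 (0.05 when arrays were centred). Of 22 measured, 6 (27.3%, against 4.43% of all genes) were over 2-fold lower and 3 (13.6%, against 3.02%) higher. Adamts5 and Adamts1, which cut large proteoglycans, were lower: Adamts5 was 11.37, 6.01 and 8.45 and Adamts1 was 11.97, 8.21 and 9.12 at day 0, day 5 and after withdrawal. Mmp13, a collagenase, was 10.30, 4.62 and 8.62. Mmp14, a membrane-bound collagenase, was 11.53, 7.69 and 11.53. Higher than at day 0 were Mmp12, the macrophage elastase (5.26, 3.50 and 7.49), Mmp9, a gelatinase (5.94, 5.31 and 7.81), and Adamts4, an aggrecanase (7.80, 5.81 and 9.37). All 3 had been below day 0 with Dox. For Mmp9 and Adamts4 the 6C untreated array stood close, at 7.44 and 8.98.

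**Figure D3:**
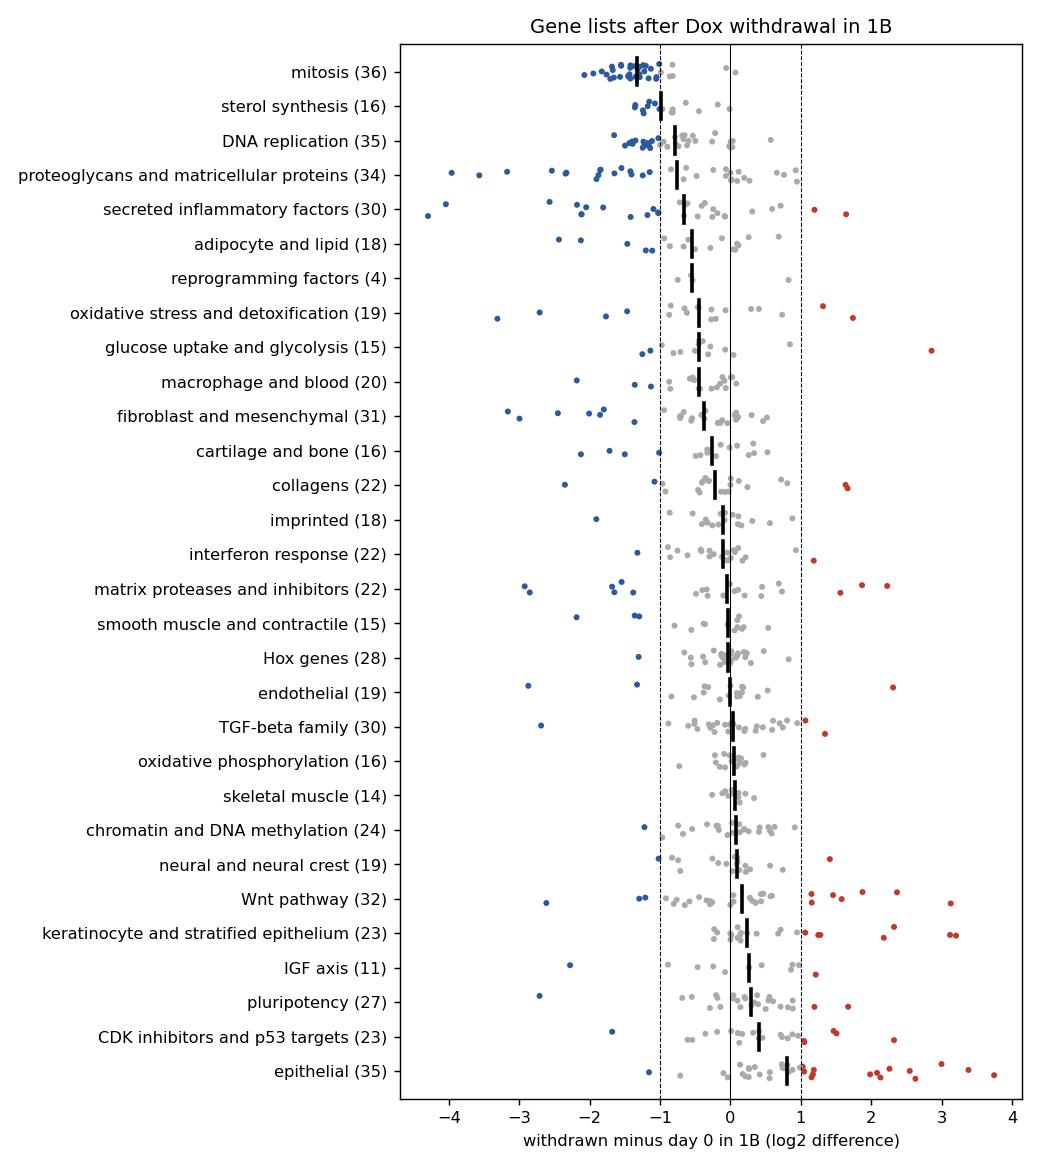
Each point is 1 gene and each black tick the list median, placed by the log2 difference between the withdrawn and the day 0 1B array; numbers in brackets count the measured genes of a list, and dashed lines mark 2-fold. Mitosis, sterol and replication genes gather to the left with medians of -1.33, -0.99 and -0.79, while the epithelial list reaches furthest to the right with a median of 0.81.

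Secreted inflammatory genes stood lower in part. These are chemokines, cytokines and growth factors by which fibroblasts call in and feed other cells. Of 30 measured, 13 (43.3%, against 4.43% of all genes) were over 2-fold lower and 2 (6.67%, against 3.02%) higher, with a median of -0.65. The lower ones numbered 10 with arrays centred and 8 against the mean of the untreated arrays. The parental and 6C untreated arrays lay at -0.34 and -0.49, also below 1B day 0. Cxcl5, a neutrophil chemokine, was 10.70 at day 0, 9.76 with Dox and 6.40 after withdrawal, a difference of -4.30. The other untreated arrays held 10.28 and 9.85, so the withdrawn array differed by -3.45 from the lowest untreated one. Hgf, the hepatocyte growth factor, was 8.50, 3.94 and 4.46, against 8.72 and 7.90 in the other untreated arrays. Cxcl12, a chemokine that holds stem and blood cells in place, was 9.97, 5.82 and 7.40. Il1rn, the antagonist of interleukin 1, was 10.24, 5.76 and 8.06.

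Il6, the cytokine interleukin 6, was 8.16 at day 0 and 6.05 after withdrawal, yet 3.73 and 4.98 in the parental and 6C arrays, so that its direction turned with the baseline. Il11, a cytokine of the same family, was higher, at 9.38, 6.23 and 11.02, and lay above all 3 untreated arrays. Ptgs2, the inducible cyclooxygenase, stood at 13.33 and 13.25. Blood cells also make such factors, so their genes are given beside them. Of 20 measured macrophage and blood genes, 3 were over 2-fold lower and none was higher, with a median of -0.44; their summed marker level was 9.32 at day 0 and 9.26 after withdrawal. The part of these cells in the secreted genes was not tested. Cd53, a leukocyte surface gene, was 9.24, 4.62 and 7.06, and 7.10 in the parental array.

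Wnt genes showed large single differences on both sides. Wnt ligands bind Frizzled receptors and stabilise beta-catenin, which acts with Lef1 on targets such as Axin2, itself a brake on the pathway. Of 32 measured Wnt pathway genes, 7 (21.9%, against 3.02% of all genes) were over 2-fold higher and 3 (9.38%, against 4.43%) lower. The list median was 0.16. The balance turned with the baseline: against the parental array 4 were higher and 15 lower, with a median of -0.87, and against the mean of the untreated arrays the median was -0.24. Axin2 was 6.10 at day 0, 5.63 with Dox and 9.23 after withdrawal, 3.13 above day 0. The other untreated arrays had 7.86 and 6.50, both below the withdrawn array. Lef1 was 6.31, 9.15 and 8.67, with 7.95 in the parental array. Ligand genes stood higher without having been higher at day 5: Wnt4 was 6.97, 6.58 and 8.85, Wnt9a was 7.43, 6.77 and 9.01, and Wnt2 was 6.81, 6.48 and 8.27. Each of these lay above all 3 untreated arrays. Lower were Rspo2, an enhancer of Wnt signals (8.39, 5.39 and 5.78), Sfrp4, a secreted antagonist (8.66, 5.88 and 7.36), and the receptor gene Fzd4 (8.04, 6.39 and 6.83). For Sfrp4 the 6C untreated array lay lower still, at 6.57.

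Inhibitors of cyclin-dependent kinases (CDKs), which halt the cell cycle, and p53 targets had the highest mean level of all 13 arrays after withdrawal. Of 23 measured, 5 (21.7%, against 3.02% of all genes) were over 2-fold higher and 1 (4.35%, against 4.43%) lower, with a median of 0.41. The other untreated arrays lay at -0.51 and -0.54. For 10 of the 23 genes the withdrawn array was the highest of the 13. That was also so for 8 of 32 Wnt genes, and the share over all genes was not counted. Cdkn2a, whose locus encodes p16 and p19Arf, was 9.71 at day 0, 9.87 with Dox and 11.21 after withdrawal, with 8.96 and 9.53 in the other untreated arrays. Its neighbour Cdkn2b, which encodes p15, was 9.74, 7.58 and 10.79, with 8.89 and 8.79. Both thus lay above every untreated array, Cdkn2b after lying below them at day 5. Pmaip1, the death-promoting gene Noxa, was 9.03, 7.55 and 10.50, with 6.73 and 7.98 in the other untreated arrays. Trp53inp1, a p53-induced stress gene, was 11.15, 12.23 and 12.20. Perp, given above as a keratinocyte gene, is in this list too and is its remaining higher gene. Cdkn1a, which encodes p21 and was added after its values were seen, differed by 0.71, from 12.36 to 13.07. Cdkn2c, the inhibitor p18, was lower, at 8.95, 7.71 and 7.27, and Gadd45a, a DNA damage gene, was 9.27 and 9.28.

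Several of the genes furthest from day 0 lie outside the lists described so far. Bex1, an X-linked gene of neural and stem cells, was 5.30 at day 0, 10.87 with Dox and 9.82 after withdrawal, with 3.98 and 2.61 in the other untreated arrays. Slc2a3, the glucose transporter GLUT3, was 7.21, 11.57 and 10.07. Ckmt1, a mitochondrial creatine kinase, was 6.06, 9.14 and 8.82, and Cyyr1 was 5.83, 9.06 and 8.61. Those 4 genes were high with Dox and, although lower than then, stayed well above every untreated array. Sp6, a transcription factor of epidermis and teeth, was 5.65, 7.50 and 8.46, highest after withdrawal. Cpz, a carboxypeptidase that binds Wnt proteins, was 6.23, 7.26 and 9.65, also above day 0 with Dox and highest after withdrawal.

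A further set was near day 0 at day 5 and high only after withdrawal. Scn3b, a sodium channel subunit, was 6.23 at day 0, 5.52 with Dox and 9.96 after withdrawal, and 5.08 and 4.74 in the other untreated arrays. Alox5, which starts leukotriene synthesis, was 6.05, 5.54 and 8.91. Camk4, a calcium-dependent kinase, was 5.72, 5.44 and 8.47, and Sema4f, a semaphorin, was 6.82, 6.16 and 9.50. Pla1a, a phospholipase, was 6.48, 6.20 and 9.21. In each of them the withdrawn array lay above all 3 untreated arrays. Others were below day 0 with Dox and above it without. Htr2b, a serotonin receptor, was 6.21, 4.76 and 8.87, Hyal1, a hyaluronidase, 9.45, 7.79 and 11.81, and Tnfsf15, a cytokine of the tumour necrosis factor family, 6.80, 5.77 and 9.15.

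Gzmd, which encodes granzyme D, a serine protease of killer lymphocytes, was the gene with the largest difference upward. It was 6.33 at day 0, 3.02 with Dox and 10.96 after withdrawal, 4.63 above day 0. The parental array held 3.27 and the 6C untreated array 8.89, so the untreated lines differed by more than the withdrawn array did from day 0. Mcpt8, a mast cell protease gene of the same gene cluster, followed the same order, with 8.29, 5.17 and 10.73, and 5.53 and 9.86 in the other untreated arrays. Mcpt1, a neighbour named after its values were seen, was 4.03, 3.65 and 6.90. In the order of the RefSeq annotation, Cma1, Mcpt2, Ctsg, Gzmn and Gzmb lie in the same cluster and differed from day 0 by 0.12, -0.62, -0.05, 0.75 and 0.13. Granzyme and mast cell protease genes are close copies, and how far their probes share signal was not tested. Beside them, 17 of the 20 measured macrophage and blood genes lay below day 0, with a list median of -0.44, and their part in these signals was not tested.

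**Figure D4:**
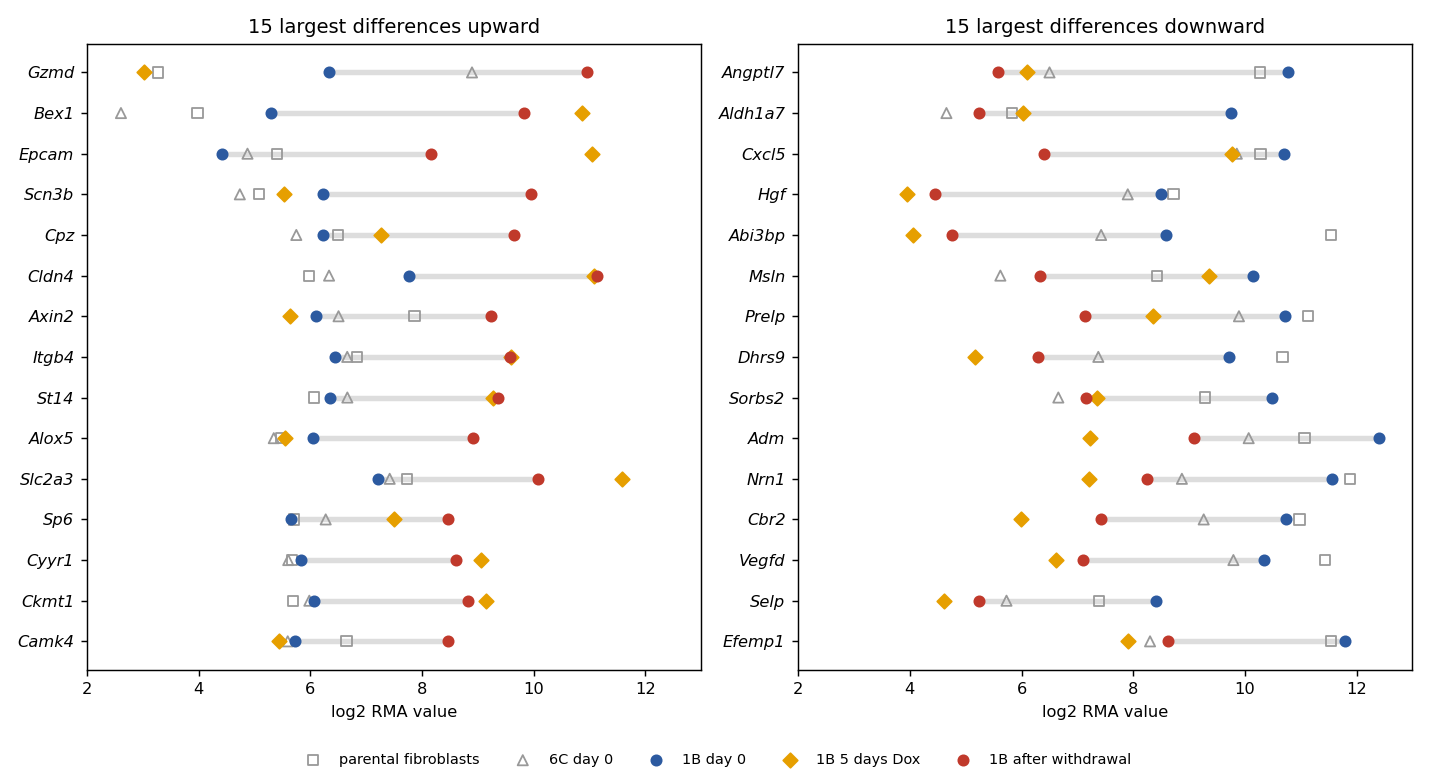
Log2 values of the 15 genes with the largest differences each way, in 5 arrays: squares are parental fibroblasts, triangles 6C day 0, blue circles 1B day 0, orange diamonds 1B at day 5 of Dox and red circles 1B after withdrawal, with a bar from day 0 to withdrawn. Upward, Gzmd, Scn3b, Axin2 and Camk4 have day 5 below day 0; downward, day 5 lies near the withdrawn value in genes such as Angptl7, Hgf and Vegfd, and near day 0 in Cxcl5 and Msln.

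On the lower side, Angptl7, a secreted angiopoietin-like protein, was 10.78 at day 0, 6.10 with Dox and 5.58 after withdrawal. The parental array held 10.27 and the 6C untreated array 6.50. The aldehyde dehydrogenase gene Aldh1a7 was 9.74, 6.03 and 5.24, but 5.82 and 4.65 in the other untreated arrays, so 1B day 0 was the only untreated array at a high level. The same held for Aldh1a1, a retinaldehyde dehydrogenase, at 8.67, 10.82 and 5.96, with 5.81 and 4.98. Msln, the mesothelial surface protein, was 10.14, 9.35 and 6.32, with 8.42 and 5.62. Sorbs2, a cytoskeletal adaptor, was 10.49, 7.34 and 7.15, with 6.66 in the 6C array. For these genes the withdrawn array lay within the range of the untreated lines, except that Angptl7 lay 0.92 below it.

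Other genes lay below every untreated array. Vegfd, a lymphatic growth factor, was 10.33, 6.62 and 7.11, with 11.44 and 9.79 in the other untreated arrays. Crabp1, which binds retinoic acid, was 10.91, 8.86 and 8.11, with 11.59 and 11.37. Abi3bp, a matrix protein, was 8.59, 4.05 and 4.75, with 11.53 and 7.42, and Cbr2, a carbonyl reductase, 10.73, 5.98 and 7.42, with 10.98 and 9.26. Adm, the vasodilator peptide adrenomedullin, was 12.40, 7.23 and 9.08, with 11.07 and 10.07. Among genes near day 0 at day 5 and lower only after withdrawal, Igfbp6, which binds insulin-like growth factor 2, was 10.04, 9.26 and 7.76, and Atp10a, a lipid flippase, 9.74, 8.95 and 7.33. Genes above day 0 with Dox and below it afterwards included Cdca3, a cell division gene (8.30, 9.93 and 6.46), and Elovl6, a fatty acid elongase (10.22, 11.59 and 8.43).

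To ask whether the same clusters differ in cells further along, comparisons that share no array with the 1B one were set beside it. In 6C, day 21 of Dox was over 2-fold above day 0 in 3028 clusters (13.0%) and below it in 2119 (9.08%). Of the 788 clusters higher after withdrawal in 1B, 212 (26.9%) were higher and 99 (12.6%) lower in 6C at day 21, and the 212 were 7.00% of the 3028. Of the 1729 lower clusters, 429 (24.8%) were lower and 242 (14.0%) higher, and the 429 were 20.2% of the 2119. In primary iPS cells against parental fibroblasts, 3294 clusters (14.1%) were higher and 4432 (19%) lower. Of the 788, 202 (25.6%) were higher and 156 (19.8%) lower there. Of the 1729, 676 (39.1%) were lower and 276 (16.0%) higher. The shares in the same direction were above those over all clusters, and the shares in the opposite direction lay closer to them. Among genes in both, Epcam was 12.30 in 6C at day 21 and 11.68 in primary iPS cells, and Bex1 was 11.06 and 11.47. Axin2, at 6.34 and 7.22, Ivl, at 2.73 and 2.27, and Gzmd, at 4.35 and 3.71, were not high in either. Mki67 was 9.69 and 9.67 there, against 5.88 after withdrawal in 1B.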

How the data were processed

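RNA was measured on Affymetrix mouse exon arrays, 13 in all. The deposited values are log2 expression per transcript cluster. Per the submitters' processing notes, RMA was run in Affymetrix Expression Console and mm9 was the build; versions are not given in the sources used here. RMA corrects background, quantile-normalizes arrays and summarises probes, and compresses low values. The log base was taken as 2 from the range, 0.461 to 14.34. Symbols came from the platform annotation: 14996 of 23332 clusters had 1, 1019 several and 7317 none. Where clusters shared a gene, the brightest on average stood for it. Array number limits the precision.

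The withdrawn minus the day 0 value was taken per cluster, without a test, and clusters over 2-fold apart were counted. Gene lists were described by counts and medians, and promoters by letters found. The members and the 30 lists were chosen with earlier results of these data known. Named genes were, with RIKEN and predicted names left out and at least 8 on the brighter array, the 15 largest differences each way, the 6 largest each way with day 5 near day 0 or opposite, and the 8 furthest outside the untreated arrays; and, at any level, the factors, up to 6 members per list and direction, and up to 2 nearest day 0. Other scalings, folds and baselines and a filter on low values were the alternatives. Counting was checked on simulated data. Python 3.11.15, pandas 2.3.3 and numpy 2.4.6 were used.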

Additional observations from a re-analysis of the deposited data

How the results depend on the processing

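With 1 array a side, no value has an error, and clusters at low levels make up much of the counts. The main counts of clusters, 788 higher and 1729 lower, became 343 and 670 with the filter on low values, 2063 and 3501 at 1.5-fold, 220 and 554 at 3-fold, 449 and 658 over genes with 1 symbol, and 954 and 1484 with quantile normalization. Against the mean of the 3 untreated arrays they were 802 and 1142, and against the parental array 1350 and 2365. With the filter, 48.7% of the higher clusters were higher in 6C at day 21 (17.2% of all clusters that passed) and 35.6% in primary iPS cells (16.4%). Of the lower clusters 34.9% (9.38%) and 54.6% (22.4%) were lower there. In the opposite direction were 12.0% and 22.7% of the higher clusters and 20.6% and 21.9% of the lower ones. The filter takes the mean of all 13 arrays, so a cluster can pass through the very arrays it is then scored on. The larger shares with the filter can therefore not be read as a closer match. Against the parental array, list medians moved to 0.81 for keratinocyte, -3.12 for proteoglycan, -0.68 for matrix protease, -0.58 for mitosis, -2.58 for cartilage and bone, 1.00 for CDK inhibitor and p53, -1.21 for interferon, -0.87 for Wnt, -1.47 for IGF and 0.44 for glycolysis genes, the last 3 with the sign turned. Against the untreated mean they moved to -1.54 for proteoglycan, -1.06 for cartilage and bone, -0.24 for Wnt, -0.74 for IGF, 0.08 for glycolysis and 0.03 for the reprogramming factors, the last 4 again with the sign turned. Mitosis genes over 2-fold lower numbered 27 of 36 with arrays centred, 28 against the untreated mean and 9 against the parental array. On the same settings, replication genes numbered 13, 13 and 4 of 35, and sterol genes 6, 2 and 6 of 16. The direction turned against the parental array for Tdgf1 (-0.28), Zfp42 (-0.58), Krt19 (0.049), Il6 (2.31), Aldh1a1 (0.15), Myh11 (0.36), Acta1 (0.74) and Aldh1a3 (-0.13), and against the untreated mean for Krt19 (0.33) and Il6 (0.42). Where the baseline moved a value, the other untreated lines differ from 1B by their own measured levels. No paired analysis was possible because each condition had 1 array and the labels give no replicate numbers.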

Other observations

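Fat metabolism genes stood below day 0 in part. Of 18 measured adipocyte and lipid genes, 5 (27.8%) were over 2-fold lower and none was higher, with a median of -0.55. Pparg, the transcription factor of fat cell formation, was 8.74 at day 0, 6.36 with Dox and 6.30 after withdrawal. Lpl, lipoprotein lipase, was 7.95, 7.82 and 5.83, and Scd1, a fatty acid desaturase, was 11.69, 12.39 and 10.23. The others were Cd36 and Fabp4, which take up and carry fatty acids. Of 15 glucose uptake and glycolysis genes, Aldoc and Pdk1 were lower, by differences of -1.25 and -1.14, and only Slc2a3 was over 2-fold higher. Of 19 oxidative stress and detoxification genes, Cbr2, Aldh1a1, Nqo1 and Sod3 were lower and Aldh1a3 and Gpx3 higher. Oxidative phosphorylation genes, 16 in number, held none over 2-fold from day 0.

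Most lists of signals and lineage genes showed few large differences. In lists of 18 or more genes, 1 member past 2-fold is near the share over all genes, 3.02% higher and 4.43% lower. Of 30 TGF-beta family genes, Tgfbr3, a co-receptor, was lower (9.96 at day 0, 7.27 after withdrawal), and Tgfb2 (9.78 and 11.12) and Bmp7 (5.42 and 6.48), which encode ligands, were higher. Of 11 genes of insulin-like growth factor signalling, Irs1 was 1.21 above and Igfbp6 -2.28 from day 0 (9.09% each way). Hox genes, which record position along the body, held 1 of 28 over 2-fold lower, Hoxd13, the most distal limb gene (9.08 and 7.78). Of 16 cartilage and bone genes, Sox5, Tnmd, Col2a1 and Sox6 were lower, with Sox5 at 7.89 and 5.77. Of 15 smooth muscle genes, Myh11, Acta1 and Mylk (20.0%) were lower. In that list 7 genes had their highest value of the 13 arrays after withdrawal, a share not counted over all genes. In the endothelial list of 19, Podxl was higher (5.52, 11.21 and 7.83 over the 1B arrays) and Cd34 (8.62, 6.88 and 5.75) and Emcn lower; both also mark other cells. Of 18 imprinted genes Plagl1 was lower (11.05 and 9.14), of 24 chromatin genes Asf1b (9.74 and 8.52), and of 22 interferon genes Ifit2 was lower and Tap1 higher. Of 19 neural genes Pax3 was higher and S100b lower, and no skeletal muscle gene of 14 was over 2-fold from day 0.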
